A study of Mus musculus with 18 samples.

Results

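The insulin-like growth factor (IGF) genes described here are 10 of the 24540 gene symbols held in 2 tables of read counts, and all 10 were found once in each table. They were chosen by name, as the ligands Igf1 and Igf2, the receptors Igf1r and Igf2r, and the binding protein genes Igfbp2, Igfbp3, Igfbp4, Igfbp5, Igfbp6 and Igfbp7. The RNA came from GFP-tagged mouse cancer cells grown as hanging-drop spheroids, either alone or mixed with 3 fibroblasts per cancer cell. 168FARN breast cancer cells were cultured with CAFs, the fibroblasts of a tumour's stroma, here taken out of MMTV-PyMT mammary tumours, and LLC1 lung cancer cells with fibroblasts from dorsal skin wounds on day 10 after wounding. The fibroblasts carried either a control guide RNA (sgNS, called WT in the labels) or a guide RNA with Cas9 against the transcription factor gene Prrx1 (sgPrrx1). No guide was aimed at Prrx1 in the cancer cells, so its level is no check on the labels. Each line had 3 groups of 3 libraries, named here alone, WT and sgPrrx1. Before sequencing the cancer cells were sorted from the spheroids by FACS, a sort of cells by fluorescence, on GFP. The study's text also describes the fibroblasts as expressing GFP, and whether the edited fibroblasts were clones is not stated. Nothing in the labels says that the 3 libraries of a group came from separate cultures, so p-values measure the spread between these libraries only.

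Igf1 and Igf2 are secreted growth factors that bind the receptor tyrosine kinase made from Igf1r, which signals through insulin receptor substrates, phosphoinositide 3-kinase and Akt. The product of Igf2r, also the receptor for mannose-6-phosphate, has no kinase and takes IGF-II into the cell for degradation. Most IGF in tissue fluid is held by the binding proteins, which keep the ligand from the receptor or store it until proteases release it. Igfbp7 binds IGFs more weakly than the others and is known as a secreted product of fibroblasts and blood vessels. In mammary and lung tumours, Igf1 is typically a product of the stroma, and Igf2 is an imprinted fetal growth factor gene that some tumour cells express.

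The promoters of 5 members are shown because their genes carry the findings. Igf1, Igfbp3, Igfbp5 and Igfbp7 had between 0 and 2 reads in each library of cells grown alone and were read in WT cocultures, and Igfbp4 was the member with the highest level per length in every group. Each sequence is the RefSeq window of 300 bases on GRCm38.p6, from 250 bases before to 50 bases after the start of transcription, written 5′ to 3′ on the gene's strand, and capitals mark TATAAA. For Igf1, Igfbp3 and Igfbp4 that start lies inside the gene span given below, and no other start of these genes was examined. The windows are chr10:87860861-87861160 on the plus strand for Igf1, chr11:7213874-7214173 on the minus strand for Igfbp3, chr1:72874816-72875115 on the minus strand for Igfbp5, chr5:77407996-77408295 on the minus strand for Igfbp7 and chr11:99040994-99041293 on the plus strand for Igfbp4.
Igf1: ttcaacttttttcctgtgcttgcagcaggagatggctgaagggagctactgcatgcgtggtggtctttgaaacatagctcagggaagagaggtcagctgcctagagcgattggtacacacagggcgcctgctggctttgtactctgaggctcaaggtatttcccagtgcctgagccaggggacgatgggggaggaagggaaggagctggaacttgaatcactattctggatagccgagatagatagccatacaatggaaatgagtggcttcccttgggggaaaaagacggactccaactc
Igfbp3: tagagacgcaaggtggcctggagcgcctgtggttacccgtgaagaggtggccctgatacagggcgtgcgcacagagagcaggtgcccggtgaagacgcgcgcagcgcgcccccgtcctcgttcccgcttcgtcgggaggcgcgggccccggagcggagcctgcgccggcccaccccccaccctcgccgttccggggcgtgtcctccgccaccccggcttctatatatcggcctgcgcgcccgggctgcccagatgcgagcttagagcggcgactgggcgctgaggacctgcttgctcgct
Igfbp5: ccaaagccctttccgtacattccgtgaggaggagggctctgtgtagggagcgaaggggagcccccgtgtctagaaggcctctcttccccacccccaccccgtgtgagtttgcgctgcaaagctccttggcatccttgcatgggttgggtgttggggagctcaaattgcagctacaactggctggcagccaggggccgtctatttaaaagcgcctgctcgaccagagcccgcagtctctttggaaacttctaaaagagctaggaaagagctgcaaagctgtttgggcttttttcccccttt
Igfbp7: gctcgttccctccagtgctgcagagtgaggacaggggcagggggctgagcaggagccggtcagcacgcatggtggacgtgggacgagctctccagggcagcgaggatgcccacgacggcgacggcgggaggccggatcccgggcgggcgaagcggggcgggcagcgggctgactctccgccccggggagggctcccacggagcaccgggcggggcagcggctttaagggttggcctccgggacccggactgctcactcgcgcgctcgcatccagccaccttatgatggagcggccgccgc
Igfbp4: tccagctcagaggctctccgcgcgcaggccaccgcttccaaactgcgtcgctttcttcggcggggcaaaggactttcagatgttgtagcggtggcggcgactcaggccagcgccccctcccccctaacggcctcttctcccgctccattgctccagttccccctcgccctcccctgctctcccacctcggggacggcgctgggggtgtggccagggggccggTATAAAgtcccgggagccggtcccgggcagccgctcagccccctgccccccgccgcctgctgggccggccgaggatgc

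The 4 genes read in WT cocultures but not, or hardly, in cells grown alone did not share a promoter type by the letters of these windows. The Igfbp3 and Igfbp7 windows held 37 and 33 CpG dinucleotides, while those of Igf1 and Igfbp5 held 6 and 10, against a median of 7 over all 32851 promoters in the table. TATAAA stood in the Igfbp4 window, at -28 from the start, and in none of these 4, and 13.6% of all promoters held it on either strand. TAATTA, the letters of a motif bound by many homeobox factors, the class to which Prrx1 belongs, was in none of the 5 windows shown and in 5.29% of all promoters on either strand. Among the 14 promoter entries of the 10 members, 1 of the 4 starts of Igf2 held TAATTA. These are matches of letters and not binding sites.

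The libraries held 48315037 to 68933002 reads assigned to genes in 168FARN and 66129117 to 103997557 in LLC1. Levels are CPM, the read count relative to library size, scaled within each line, and a count of 3 reads in a library, taken as the least a library can show, corresponded to 0.0426 to 0.0626 CPM in 168FARN and 0.0283 to 0.0514 CPM in LLC1. In LLC1, replicate 3 of the sgPrrx1 group stood apart, with a correlation of log2 CPM of 0.946 and 0.947 to its 2 replicates, which correlated at 0.989 with each other. In that library the 25% of genes with the longest exon length were at a median log2 difference of -0.61 from the mean of the line's libraries, and the 25% with the shortest at 0.53. Igf2r is among the former and Igfbp4, Igfbp6 and Igfbp7 among the latter. LLC1 results that rest on this library are therefore given with and without it. As for the labelled cell types, 168FARN cells alone showed a summed level of 329 to 352 CPM over 11 epithelial markers, nearly all of it from Krt8 at 331 CPM, while Epcam, Krt5, Krt19, Cldn3 and Cldn7 were at 0 and Cdh1 and Krt18 at 0.021 and 0.076 CPM. In LLC1 cells alone the same 11 genes summed to 0 to 0.262 CPM, and all 5 lung epithelial markers were at 0. The fibroblast marker Col3a1 stood at 1579 CPM in LLC1 cells alone.

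Of the ligands, Igf2 (chr7:142650768-142666816) was highly expressed in 168FARN and all but unread in LLC1. In 168FARN cells alone it was read at 1426, 1282 and 2159 CPM, and by its mean it was the 33rd highest of 24455 genes. In WT coculture it was at 580, 550 and 1009 CPM, and in sgPrrx1 coculture at 925, 906 and 1312 CPM. Every WT library lay below every library of cells alone, and the sgPrrx1 group overlapped both of the other groups. Of all genes tested in 168FARN, 68.3% did not overlap between WT and alone, 59.4% between sgPrrx1 and alone and 66.2% between sgPrrx1 and WT. Igf2 fell by 1.19 on the log2 scale in WT coculture (SE 0.255, adjusted p = 0.00175). The sgPrrx1 values lay between, at a log2 difference of -0.63 from cells alone (SE 0.252, adjusted p = 0.0585) and of 0.56 from WT (SE 0.252, adjusted p = 0.0790), neither past the threshold in this edgeR fit. Other fits of the same libraries passed it, voom among them (adjusted p = 0.0259 and 0.0193). A fit with a block for replicate number, given in the last paragraph, also called both, although the labels tie no samples together by number. By edgeR the first passed it without alone replicate 2 (adjusted p = 0.0426), WT replicate 3 (0.0194) or sgPrrx1 replicate 3 (0.0334), and the second without WT replicate 3 (0.00599).

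Replicate 3 held the highest Igf2 level in each of the 3 groups of 168FARN. Its ratio to the mean of replicates 1 and 2 was 1.59 in cells alone, 1.79 in WT and 1.43 in sgPrrx1 coculture, above 96.1% to 98.7% of the genes tested. Igf1r, Igf2r, Igfbp4 and Igfbp6 in the same libraries had ratios between 0.956 and 1.03. Without replicate 3 of each group, an alternative chosen after seeing these values, Igf2 differed in all 3 comparisons: by -1.26 between WT and alone (adjusted p = 6.35e-07), by -0.57 between sgPrrx1 and alone (adjusted p = 6.38e-05) and by 0.70 between sgPrrx1 and WT (adjusted p = 1.79e-05). What sets replicate 3 apart for this gene was not tested. Igf2os, an RNA that overlaps Igf2 by 7137 bases in the annotation, had 148 to 362 reads in the 168FARN libraries and 0 in LLC1. Since the use of strand in counting is not stated, reads of the 2 genes cannot be told apart where they overlap. H19, the imprinted neighbour of Igf2 at a distance of 72621 bases, reached at most 6 reads in any 168FARN library.

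In LLC1 the Igf2 counts were 0, 3 and 0 reads alone, 0, 4 and 0 in WT and 0, 3 and 0 in sgPrrx1 coculture. All the reads lay in the libraries numbered 2, at or just above the 3-read floor, and the gene was not tested within that line.

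**Figure D1:**
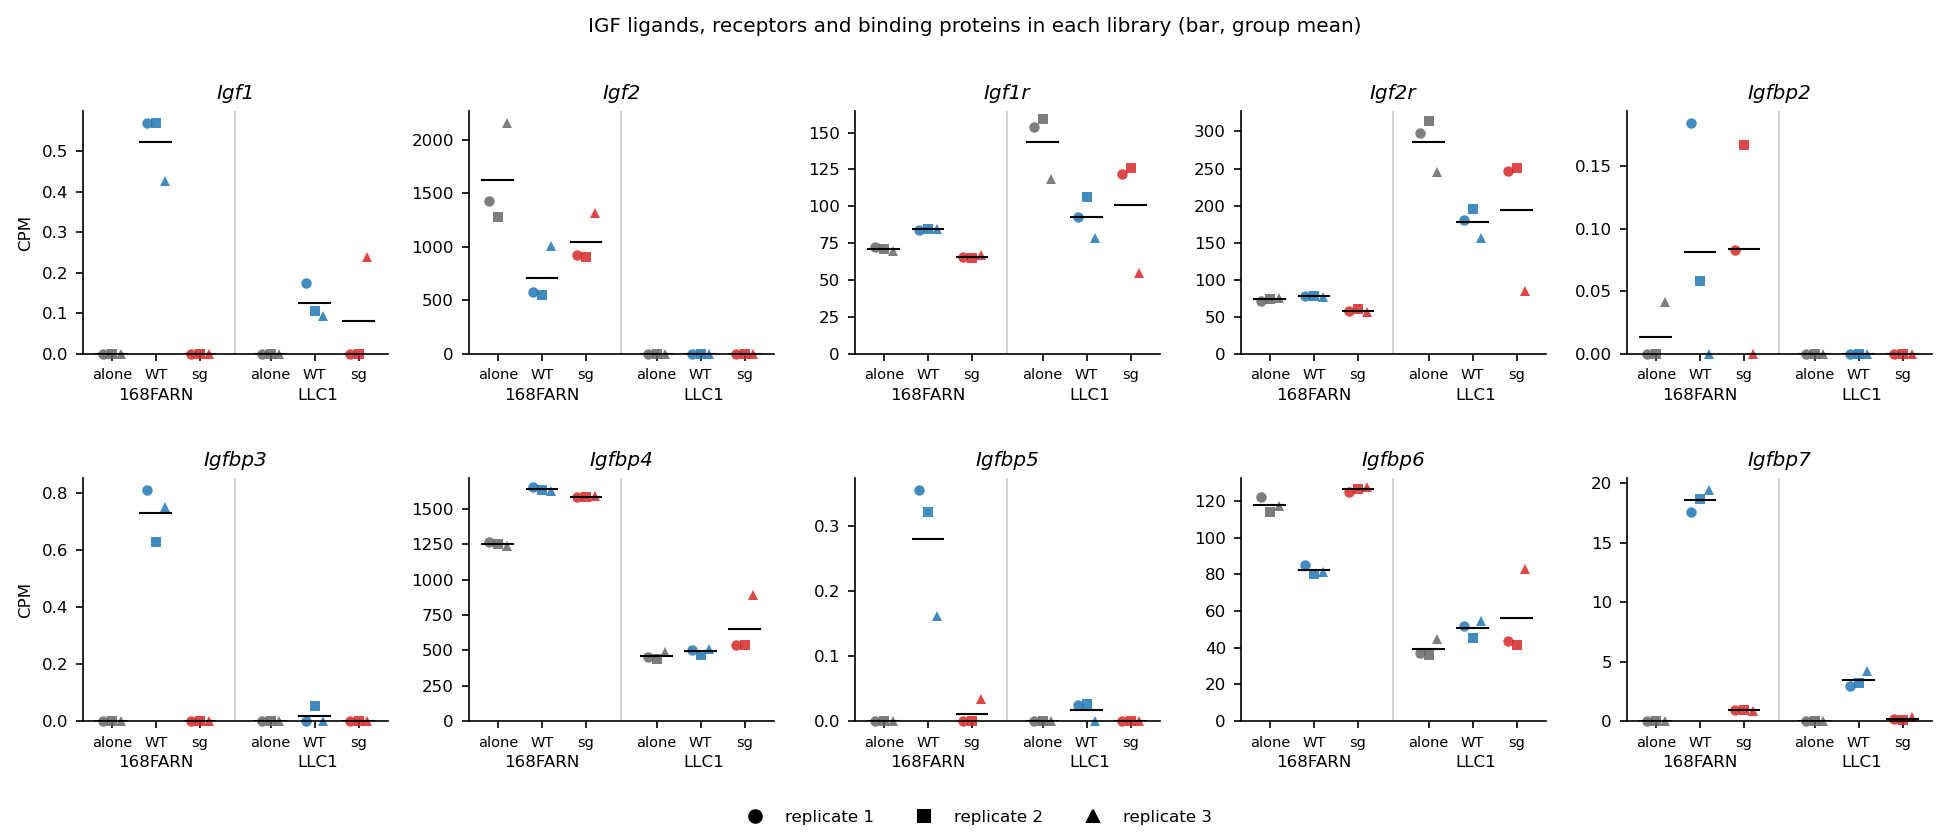
Level of each of the 10 genes in each library, in CPM on a linear axis from 0, for cells alone, WT and sgPrrx1 (sg) coculture of 168FARN (left of the line in each panel) and LLC1 (right); points are libraries, their shape gives the replicate number, and bars are group means. Igf1, Igfbp3 and Igfbp7 stand at or near 0 alone and are highest in 168FARN with WT fibroblasts, Igf2 stands out in replicate 3 of every 168FARN group, and the sgPrrx1 library numbered 3 of LLC1 lies away from its 2 replicates for both receptors, Igfbp4 and Igfbp6.

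Igf1 (chr10:87858265-87937047) was not read in cells of either line grown alone. In 168FARN the WT cocultures held 40, 39 and 21 reads, or 0.568, 0.569 and 0.426 CPM, and the alone and sgPrrx1 libraries held 0 reads each. The 3 WT libraries were thus the only 168FARN libraries with Igf1 reads. On the mean levels this was at least 9.19-fold higher than in cells alone, taking the floor of 3 reads per library for cells alone (adjusted p = 1.97e-04), and the sgPrrx1 level was at least 9.57-fold lower than WT (adjusted p = 2.16e-04). Igf1 passed the filter on low counts only through WT coculture, so a difference was built in for both tests. In LLC1, Igf1 had 14, 8 and 7 reads in WT coculture, and 0, 0 and 14 reads in sgPrrx1 coculture, all of the latter in the library that stood apart. The mean LLC1 level in WT coculture was at least 3.32-fold higher than in cells alone, but the gene was below the filter for testing in that line. In bulk libraries fewer cells of a type and less RNA per cell cannot be told apart, which applies to this gene and to each binding protein gene below that was read only with fibroblasts.

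The type 1 receptor gene Igf1r (chr7:67952257-68233668) was expressed in every library, rose with WT CAFs in 168FARN and lay lower with WT fibroblasts in LLC1, where edgeR called it without sgPrrx1 replicate 3 and voom, which weights libraries by their quality, with all of them. The 168FARN libraries held 72.7, 71.2 and 69.8 CPM alone, 83.7, 84.6 and 84.7 CPM in WT and 65.7, 65.3 and 67.0 CPM in sgPrrx1 coculture. The 3 groups did not overlap, with WT highest and sgPrrx1 lowest. Igf1r rose with WT CAFs by 0.24 (log2, SE 0.0268, adjusted p = 1.22e-05), was lower with sgPrrx1 CAFs than alone by a log2 difference of -0.11 (adjusted p = 0.00547), and was lower with sgPrrx1 than with WT CAFs by -0.35 (adjusted p = 9.06e-07).

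In LLC1, Igf1r levels were 154, 159 and 119 CPM alone, 92.9, 107 and 78.3 CPM in WT and 122, 126 and 55.0 CPM in sgPrrx1 coculture. Each alone library lay above each WT library, while the sgPrrx1 group spanned both. Of all genes tested in LLC1, 53.2% did not overlap between WT and alone. With all libraries no comparison passed the threshold by edgeR: the log2 difference between WT and alone was -0.64 (SE 0.296, adjusted p = 0.234). Without sgPrrx1 replicate 3 it was -0.62 (SE 0.130, adjusted p = 0.00525), so the size stayed and the error fell. Voom with all libraries gave -0.71 (adjusted p = 1.01e-04). The sgPrrx1 group lay at -0.51 from cells alone with all libraries (adjusted p = 0.327). Its libraries numbered 1 and 2 lay at -0.20 from cells alone (adjusted p = 0.336) and 0.42 from WT (adjusted p = 0.0996).

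Igf2r (chr17:12682406-12769706), the clearance receptor, was higher in LLC1 than in 168FARN, and its lowest 168FARN levels were those with sgPrrx1 CAFs. The 168FARN values were 71.5, 74.3 and 74.9 CPM alone, 78.0, 78.5 and 76.3 CPM in WT and 57.3, 60.5 and 56.3 CPM in sgPrrx1 coculture. The sgPrrx1 libraries were the lowest without overlap, by log2 differences of -0.34 from alone (SE 0.0340, adjusted p = 1.06e-05) and -0.42 from WT (SE 0.0340, adjusted p = 1.47e-06). The difference of 0.08 between WT and alone missed the threshold (SE 0.0338, adjusted p = 0.0670), although the WT libraries all lay above those of cells alone, and passed it without sgPrrx1 replicate 2 (adjusted p = 0.0379) and in 4 other alternatives (adjusted p = 0.0156 to 0.04998).

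In LLC1, Igf2r levels were 298, 314 and 245 CPM alone, 180, 196 and 156 CPM in WT and 246, 251 and 84.2 CPM in sgPrrx1 coculture. The WT libraries lay below the alone libraries, and the sgPrrx1 library numbered 3 lay below all others. The difference between WT and alone was -0.69 with all libraries (SE 0.357, adjusted p = 0.287) and -0.67 without that library (SE 0.105, adjusted p = 0.00131). Voom with all libraries gave -0.73 (adjusted p = 4.98e-05). Between sgPrrx1 and alone the difference was -0.56 with all libraries (adjusted p = 0.368) and -0.19 without that library (adjusted p = 0.264). Without it Igf2r was also higher in sgPrrx1 than in WT coculture, by 0.48 (SE 0.116, adjusted p = 0.0494), just under the threshold. Airn, an RNA whose annotation overlaps Igf2r by 28396 bases, had 173 to 386 reads in 168FARN and 399 to 595 in LLC1.

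Both receptor genes were also low in the library numbered 3 of the other LLC1 groups. The ratio of replicate 3 to the mean of replicates 1 and 2 was 0.759 alone, 0.785 in WT and 0.443 in sgPrrx1 coculture for Igf1r, and 0.800, 0.829 and 0.339 for Igf2r. For Igfbp6 it was 1.23, 1.12 and 1.94, the other way. The median log2 difference between the 25% longest and the 25% shortest genes moved with these libraries: it was 0.32, 0.38 and -0.0085 for LLC1 cells alone, -0.055, 0.11 and -0.15 for WT and 0.24, 0.25 and -1.14 for sgPrrx1 coculture. In 168FARN the same measure was -0.061 to -0.042 alone, 0.15 to 0.19 in WT and -0.13 to -0.12 in sgPrrx1 coculture, in the same order as the Igf1r level of that line. Its part in the differences of the receptors, and of Igfbp6 among the shortest genes, was not tested.

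**Figure D2:**
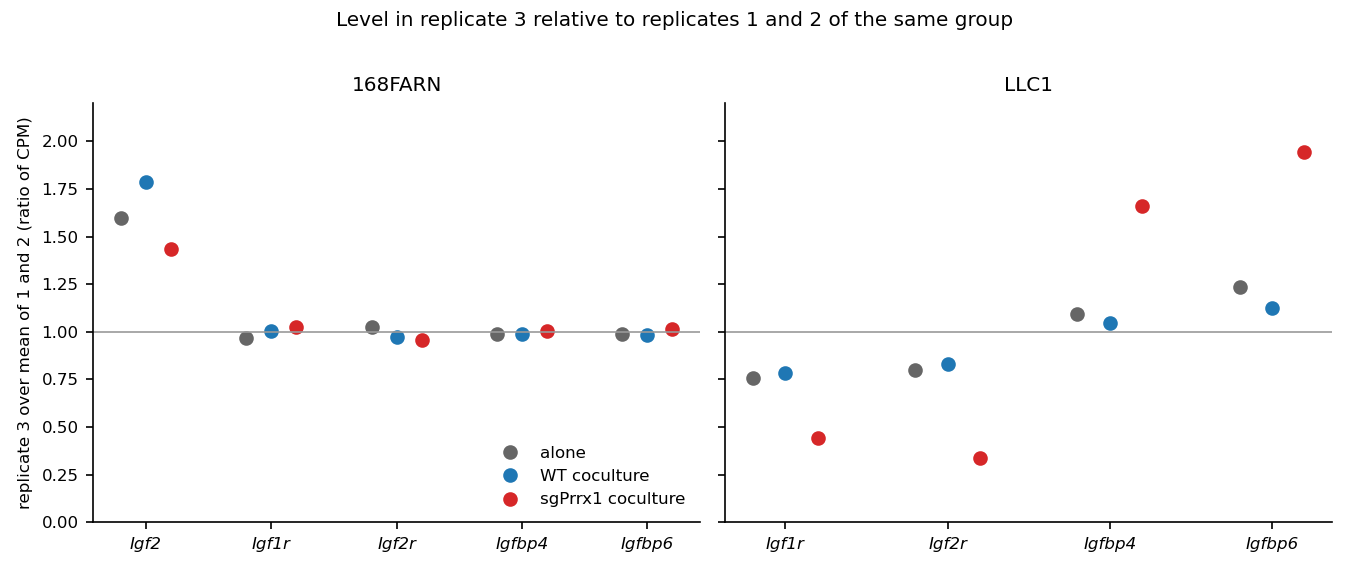
Ratio of the CPM in replicate 3 to the mean CPM of replicates 1 and 2 of the same group, for the members expressed in cells alone, in 168FARN (left) and LLC1 (right); the grey line marks a ratio of 1. In 168FARN only Igf2 leaves the line among the 5 genes shown, at 1.43 to 1.79, and in LLC1 both receptor genes lie below it and Igfbp4 and Igfbp6 above it in every group, farthest in sgPrrx1 coculture.

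Among the binding proteins, Igfbp4 (chr11:99040005-99052655), which holds IGFs away from the receptor until it is cleaved by pappalysins, was the most abundant in both lines. In 168FARN its levels were 1266, 1249 and 1241 CPM alone, 1654, 1637 and 1629 CPM in WT and 1586, 1582 and 1593 CPM in sgPrrx1 coculture. The 3 groups did not overlap. In the 3 comparisons 59.4% to 68.3% of all genes tested did not overlap either. Igfbp4 rose by 0.39 with WT CAFs (log2, SE 0.0133, adjusted p = 1.28e-09) and by 0.34 with sgPrrx1 CAFs (adjusted p = 5.69e-09), and its sgPrrx1 level was -0.05 from WT (adjusted p = 0.00982), a call that was lost with DESeq2 (adjusted p = 0.0616), with only these 2 groups in the fit (-0.02, adjusted p = 0.166) and without replicate 3 of every group (adjusted p = 0.0719). By mean CPM it was the 73rd gene of the table alone, the 35th in WT and the 49th in sgPrrx1 coculture.

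In LLC1, Igfbp4 levels were 455, 437 and 488 CPM alone, 500, 471 and 507 CPM in WT and 535, 536 and 890 CPM in sgPrrx1 coculture. The alone and WT groups overlapped, and the sgPrrx1 libraries were higher than all others. Of all genes tested, 32.4% did not overlap between sgPrrx1 and alone and 23.6% between sgPrrx1 and WT. By edgeR no difference passed the threshold with all libraries. Between WT and alone it was 0.10 with all libraries (adjusted p = 0.822), 0.13 by voom (adjusted p = 0.0242) and 0.11 without sgPrrx1 replicate 3 (adjusted p = 0.159). Without sgPrrx1 replicate 3 the difference between sgPrrx1 and alone was 0.23 (SE 0.0651, adjusted p = 0.0340), against 0.51 with it (SE 0.192, adjusted p = 0.161).

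Igfbp6 (chr15:102144186-102149512), whose protein prefers IGF-II, took the opposite course to Igfbp4 with WT CAFs. Its 168FARN levels were 122, 114 and 117 CPM alone, 85.2, 80.4 and 81.3 CPM in WT and 125, 127 and 128 CPM in sgPrrx1 coculture. The WT libraries were the lowest and the sgPrrx1 libraries the highest, with no overlap. Igfbp6 fell by 0.52 with WT CAFs (log2, SE 0.0342, adjusted p = 2.07e-07), was 0.62 higher with sgPrrx1 than with WT CAFs (SE 0.0342, adjusted p = 9.06e-08), and was 0.10 above cells alone with sgPrrx1 CAFs (adjusted p = 0.0283). The last call was lost without replicate 2 or 3 of cells alone (adjusted p = 0.116 and 0.0974) or of sgPrrx1 coculture (adjusted p = 0.0622 and 0.0870).

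In LLC1, Igfbp6 levels were 37.0, 36.0 and 45.0 CPM alone, 51.8, 45.2 and 54.6 CPM in WT and 43.9, 41.6 and 83.1 CPM in sgPrrx1 coculture. The WT libraries lay above those of cells alone by a narrow margin. The log2 difference between WT and alone was 0.36 with all libraries (SE 0.256, adjusted p = 0.447) and 0.37 without sgPrrx1 replicate 3 (SE 0.103, adjusted p = 0.0180). The change with WT fibroblasts differed between the lines, by 0.88 (LLC1 minus 168FARN, SE 0.259, adjusted p = 0.0182), and the difference was 0.83 without LLC1 alone replicate 2 (adjusted p = 0.0505).

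**Figure D3:**
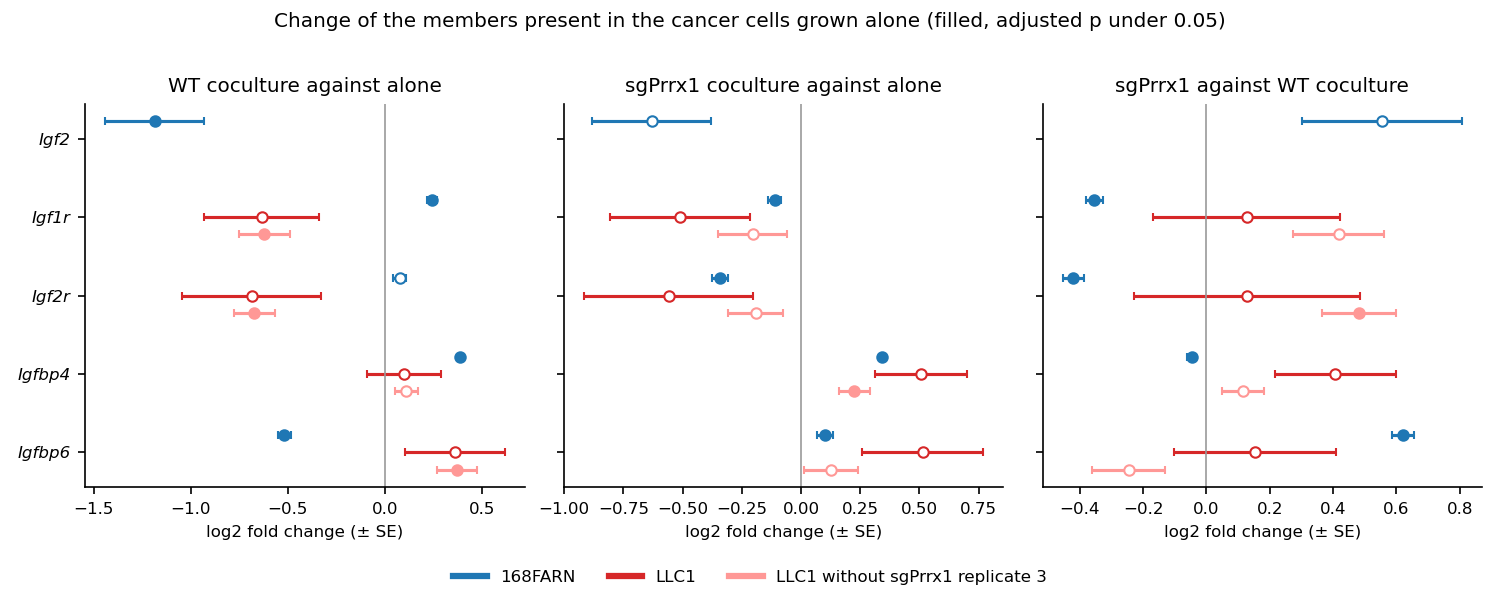
Log2 fold change with its standard error for the members expressed in cells alone, in the 3 comparisons of each line, with LLC1 shown with all libraries and without sgPrrx1 replicate 3; filled points have an adjusted p under 0.05, and Igf2 is shown for 168FARN only. With WT fibroblasts the point for Igf1r lies at 0.24 in 168FARN and at -0.64 in LLC1, that for Igfbp6 at -0.52 and 0.36, and the LLC1 errors are smaller without the library that stood apart.

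Igfbp7 (chr5:77349240-77408045) was the member with the most reads among those read in coculture and hardly or not in cells alone. In 168FARN cells alone it had 2, 0 and 2 reads, in WT coculture 1235, 1278 and 957 reads, or 17.5, 18.7 and 19.4 CPM, and in sgPrrx1 coculture 45, 54 and 51 reads, or 0.938, 0.903 and 0.863 CPM. The 3 groups were far apart and the libraries within each close together. The WT level was 744-fold that of cells alone (a ratio that rests on 4 reads in cells alone, under the floor, with an exact 95% interval of 290 to 2733 for counting error only, adjusted p = 5.79e-11), and the sgPrrx1 level 36.3-fold (13.9 to 135, adjusted p = 6.15e-07). Igfbp7 passed the filter on low counts only through the cocultures, so a difference from cells alone was built in. Between sgPrrx1 and WT the log2 difference was -4.36 (SE 0.126, adjusted p = 1.04e-09), which left 4.86% of the WT level.

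LLC1 gave the same order at a lower level. Igfbp7 had 0 reads in each library alone, 235, 239 and 315 reads in WT coculture (2.92, 3.16 and 4.24 CPM) and 16, 10 and 22 reads in sgPrrx1 coculture (0.151, 0.117 and 0.377 CPM). WT was at least 91.5-fold higher than cells alone (adjusted p = 0.00217, and 4.01e-05 without sgPrrx1 replicate 3). With all libraries sgPrrx1 was at least 5.72-fold higher than cells alone (adjusted p = 0.0276), a bound that rests in part on sgPrrx1 replicate 3. Without that library the mean sgPrrx1 level was 0.134 CPM, against 0.215 CPM with it. The floor in cells alone was 0.0376 CPM, so the bound is then lower. The call of sgPrrx1 against alone was lost when any 1 of the 3 alone libraries, the 3 WT libraries or sgPrrx1 replicate 1 was left out. The adjusted p was then 0.0583 to 0.101. The sgPrrx1 level was 6.25% of WT, a log2 difference of -4.06 that missed the threshold with all libraries (SE 0.461, adjusted p = 0.0866) and passed it without sgPrrx1 replicate 3 (-4.66, SE 0.321, adjusted p = 0.00333). The last 89 bases of Igfbp7 overlap Polr2b in the annotation, and Polr2b was read in every library.

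In 168FARN the fibroblast markers as a list moved with the genes that were read in WT cocultures, and in LLC1 their sum did not. In 168FARN, 12 of the 13 fibroblast markers tested, of 15 listed, rose with WT CAFs, and 12 fell between WT and sgPrrx1, where 33.4% of all genes rose and 33.1% fell. Col1a2, Thy1, Postn, Dpt, Fbln1 and Tagln had at most 8 reads in a library of cells alone and passed the filter through coculture, so their rise was built in, as was the fall of Thy1, Postn, Dpt and Tagln, which passed it through WT coculture. The summed level of the 15 was 133 to 137 CPM alone, 835 to 903 CPM in WT and 234 to 242 CPM in sgPrrx1 coculture. Thy1, Postn and Fbln1 were at 0 alone, Fap was at 0 in WT, and Lum, Thy1 and Fap were at 0 in sgPrrx1 coculture. Of the 14 markers read in WT coculture, 10 had a sgPrrx1 level between 0 and 18.4% of WT, Col1a1 at 6.45% and Col1a2 at 8.68% among them, beside the 4.86% for Igfbp7. The other 4 were Dcn at 46.7%, Pdgfrb at 65.7%, Pdgfra at 74.2% and Mfap5 at 106%. In LLC1, where the sum was 1733 to 1803 CPM alone, 1254 to 1281 CPM in WT and 1597 to 1660 CPM in sgPrrx1 coculture, mostly from Col3a1, the shares were 7.92% for Col1a1 and 3.04% for Col1a2, beside 6.25% for Igfbp7. Without sgPrrx1 replicate 3 the mean sgPrrx1 level of Igfbp7 was 0.134 CPM, against 0.215 CPM with it, so its share is then lower. Thy1, Fap and Mfap5 had at most 6 reads in a WT library, too few for a share, and the other 10 markers of LLC1 were at 28.7% to 219% of WT, with Dcn at 71.4%, Acta2 at 116% and Col3a1 at 134%. There 3 of 10 fibroblast markers tested rose and 3 fell with WT fibroblasts and 2 fell between WT and sgPrrx1, and without sgPrrx1 replicate 3 there were 4 rises and 4 falls, and 2 rises and 2 falls. Of all genes 8.83% and 0.0544% were called in these 2 comparisons, and 44.2% and 5.69% without that library. Col1a2, with at most 5 reads in a library of LLC1 cells alone, passed the filter through coculture, so its difference from cells alone was built in. In LLC1 each listed marker had reads in cells alone, while Thy1, Fap and Mfap5 were at 0 in sgPrrx1 coculture. Summed endothelial markers were at 0.637 to 0.841 CPM alone, 6.37 to 7.22 CPM in WT and 4.42 to 4.86 CPM in sgPrrx1 coculture of 168FARN, and at 11.9 to 13.02, 9.32 to 11.5 and 8.67 to 20.9 CPM in LLC1, with Emcn at 0 throughout. Summed immune markers were at 50.4 to 54.0, 31.8 to 34.8 and 38.2 to 39.2 CPM in 168FARN and at 16.1 to 17.5, 36.6 to 38.6 and 36.7 to 65.0 CPM in LLC1, with Cd3e at 0 throughout. The 6 mammary epithelial markers summed to at most 3.15 CPM in 168FARN and 14.6 CPM in LLC1, with Elf5 and Csn2 at 0. The part of RNA from remaining fibroblasts in the levels of Igf1, Igfbp3, Igfbp5 and Igfbp7 was not tested.

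**Figure D4:**
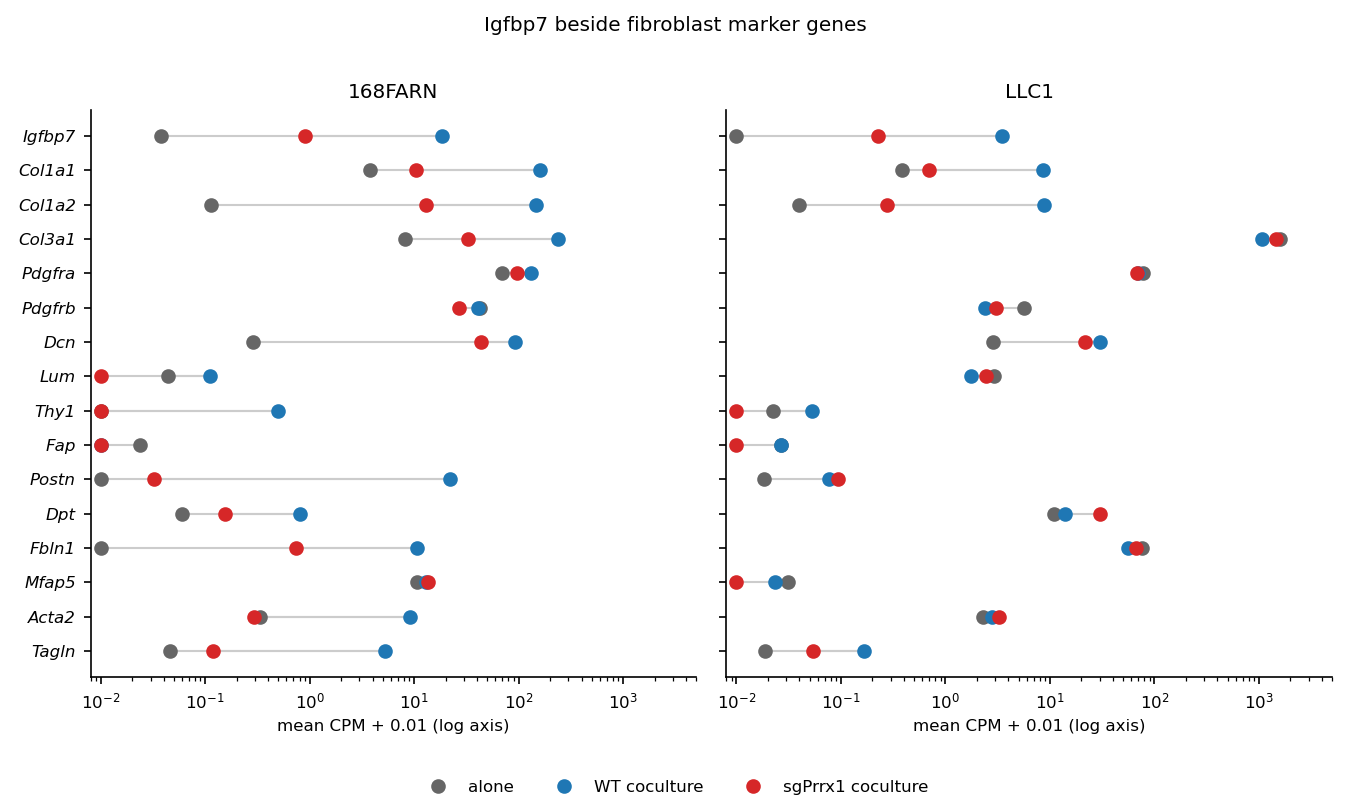
Mean CPM plus 0.01, on a log axis, of Igfbp7 and the 15 fibroblast marker genes in cells alone (grey), WT coculture (blue) and sgPrrx1 coculture (red) of 168FARN (left) and LLC1 (right); each point is the mean of 3 libraries. In both lines Igfbp7, Col1a1 and Col1a2 are lowest alone, highest in WT and below 10% of WT in sgPrrx1 coculture. In LLC1 the other markers with enough reads for a share stand at 28.7% to 219% of WT in sgPrrx1 coculture, and Col3a1, Pdgfra and Fbln1 are already high in cells alone.

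The other 3 binding protein genes were near the limit of detection. Igfbp3 (chr11:7206086-7215498), the main carrier of IGFs in serum, had 57, 43 and 37 reads in the 168FARN WT cocultures, or 0.810, 0.628 and 0.751 CPM, and 0 in all other libraries of that line. It was at least 12.9-fold higher in WT than alone (adjusted p = 9.30e-05) and at least 13.4-fold lower in sgPrrx1 than in WT coculture (adjusted p = 1.05e-04). As for Igf1, the gene passed the filter only through WT coculture, so both differences were built in. In LLC1 a single library, WT replicate 2, held 4 reads of it.

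Igfbp5 (chr1:72858065-72874865), a binding protein that attaches to matrix, had 25, 22 and 8 reads in 168FARN WT coculture, 0 in each library alone and 0, 0 and 2 reads in sgPrrx1 coculture. It was below the filter used for testing. On the mean levels it was at least 4.93-fold higher in WT than alone, and 24.4-fold lower in sgPrrx1 than in WT coculture (a ratio that rests on 2 reads, under the floor, with an exact 95% interval of 6.44 to 206 for counting error only). Its neighbour Igfbp2 (chr1:72824480-72852474), 5590 bases away, had 0, 0 and 2 reads alone, 13, 4 and 0 reads in WT and 4, 10 and 0 reads in sgPrrx1 coculture. The 3 groups of Igfbp2 overlapped, and in LLC1 it had 0 reads in all 9 libraries while Igfbp5 had at most 2.

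Counted over the 10 members, 8 could be tested in 168FARN and 5 in LLC1. Igf1, Igfbp3 and Igfbp7 passed the filter on low counts in 168FARN only through cocultures in which they were higher, as did Igfbp7 in LLC1, so a difference was built in for them. In 168FARN with WT CAFs 5 members rose and 2 fell, where 64.1% of the 13540 genes tested were called, 33.4% higher and 30.7% lower. Between sgPrrx1 coculture and cells alone 3 rose and 2 fell, where 49.7% of all genes were called, 25.7% higher and 24.1% lower. Between sgPrrx1 and WT coculture 1 was higher and 6 were lower, where 60.0% of all genes were called, 26.9% higher and 33.1% lower. Among the 5 members expressed in cells alone, 4 were called in each of these 3 comparisons, which share their libraries. Beside the shares over all genes these counts are not a result about the members.

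In LLC1, Igfbp7 was the only member that edgeR called with all libraries for WT fibroblasts and for sgPrrx1 fibroblasts against cells alone, where 8.83% and 4.32% of the 12873 genes tested were called. By edgeR no member was called between sgPrrx1 and WT, where 0.0544% of all genes were, and of the 5 tested Igfbp7 alone had an unadjusted p under 0.05 there. DESeq2 called 1 member in that comparison and 3.89% of all genes. Voom called 5, 5 and 4 of the 5 members in the 3 comparisons and 58.6%, 48.0% and 36.4% of all genes. With only the 2 groups compared in the edgeR fit, 4 members and 40.7% of all genes were called for WT against alone, and 0 members and 0.215% for sgPrrx1 against alone. Without sgPrrx1 replicate 3 the members called were 4, 2 and 2 in the 3 comparisons, where 44.2%, 26.7% and 5.69% of all genes were called.

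The lines were compared directly in a joint fit of all 18 libraries, in which 9 members could be tested. In cells alone LLC1 had more Igf1r than 168FARN, by 1.12 (log2, SE 0.231, adjusted p = 4.90e-04), and more Igf2r, by 2.06 (SE 0.286, adjusted p = 1.09e-05). It had less Igfbp4, by -1.34 (SE 0.134, adjusted p = 3.08e-07), and less Igfbp6, by -1.48 (SE 0.187, adjusted p = 4.13e-06). With Igf2, and with Igfbp7 on a total of 4 reads against 0, 6 members were called, where 71.0% of all genes were. Line and table cannot be told apart in these values.

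In the differences between the lines in their response, line and fibroblast source cannot be told apart. For the response to WT fibroblasts 1 of 9 members, Igfbp6, differed between the lines, where 29.4% of all genes did. The difference for Igf1r was -0.88 (SE 0.323, adjusted p = 0.0547), and it passed the threshold without LLC1 alone replicate 3 (adjusted p = 0.0408), WT replicate 2 (0.0483) or sgPrrx1 replicate 1 (0.0457), 2 (0.0407) or 3. Without LLC1 sgPrrx1 replicate 3, 4 of 10 members differed, where 52.5% of all genes did: Igf1r by -0.84 (SE 0.135, adjusted p = 8.09e-05), Igf2r by -0.72 (SE 0.110, adjusted p = 4.68e-05), Igfbp4 by -0.25 (SE 0.0583, adjusted p = 0.00198) and Igfbp6 by 0.92 (SE 0.115, adjusted p = 6.74e-06). For the difference between sgPrrx1 and WT coculture no member of 9 was called with all libraries by DESeq2 or by edgeR without a block for replicate number. There edgeR called 19.3% of all genes, and Igf1 and Igfbp4 had an unadjusted p under 0.05. With that block edgeR called 1 member and 22.1% of all genes. Voom called 5 members and 54.9% of all genes. By edgeR, Igf1 (adjusted p = 0.0435) and Igfbp4 (0.0447) were called without LLC1 sgPrrx1 replicate 1, where 20.3% of all genes were. Igfbp4 (0.0458) was also called without sgPrrx1 replicate 2, where 20.0% were. These calls kept sgPrrx1 replicate 3, which held all 14 LLC1 sgPrrx1 reads of Igf1. Igfbp4 was at 890 CPM there, against 535 and 536 CPM in replicates 1 and 2. Without replicate 3 neither gene was called. With all libraries Igf1 was below the LLC1 filter, and in the other line only WT libraries held its reads. The Igf1 estimate ran from 1.90 to 7.86 when each library was left out in turn. For sgPrrx1 coculture against cells alone no member of 9 was called by either tool, none had an unadjusted p under 0.05, and 12.1% of all genes were called by edgeR. Without LLC1 sgPrrx1 replicate 3 the difference between sgPrrx1 and WT coculture differed between the lines for 3 members, where 44.6% of all genes were: Igf1r by 0.74 (adjusted p = 5.50e-04), Igf2r by 0.87 (adjusted p = 2.27e-05) and Igfbp6 by -0.90 (adjusted p = 3.04e-05).

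Per kilobase of exon, Igfbp4 was the highest member in each of the 6 groups. In 168FARN cells alone it was Igfbp4 at 530.1, Igf2 at 295, Igfbp6 at 106.0, Igf1r at 15.9 and Igf2r at 7.80 CPM per kb, with no overlap between neighbours. In LLC1 cells alone it was Igfbp4 at 195, Igfbp6 at 35.4, Igf1r at 32.1 and Igf2r at 30.3 CPM per kb, and Igf1r overlapped both Igfbp6 and Igf2r over the libraries. Igfbp7 entered the order in 168FARN WT coculture at 15.3 CPM per kb, between Igf1r at 18.9 and Igf2r at 8.22. Of the summed level per kb of the 6 binding protein genes, Igfbp4 made up 83.3% alone, 88.6% in WT and 85.4% in sgPrrx1 coculture of 168FARN, and 84.7%, 81.2% and 84.8% in LLC1. The exon lengths came from an older annotation that may lack untranslated ends, 4476 bases for Igf1r for example, so levels per length are approximate.

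Of 61 other genes of the pathway, 53 could be tested in 168FARN. With WT CAFs 30 rose and 8 fell, beside 33.4% of all genes higher and 30.7% lower, with a median log2 change of 0.21 against 0.01 over all genes. With sgPrrx1 CAFs 17 rose and 12 fell, beside 25.7% and 24.1% of all genes. Between sgPrrx1 and WT 12 were higher and 27 lower, beside 26.9% and 33.1% of all genes, with a median of -0.11 against -0.03. Among the lower genes, Pappa, Pappa2, Adam12, Grb10 and Grb14 passed the filter only through WT coculture, so their falls were built in. The proteases and inhibitors that govern binding protein cleavage were 7 genes, of which 5 rose, 1 fell and 1 was not called with WT CAFs. For 4 of the 5, Pappa, Pappa2, Stc1 and Adam12, with 0 to 0.027 CPM in cells alone, the rise was built in by the filter, as for Igf1. Htra1, a secreted protease that cleaves IGF binding proteins, rose from 349 ± 3.66 to 635 ± 9.97 CPM (SD, n = 3), by 0.86 (log2, SE 0.0218, adjusted p = 1.20e-10), and was at 387 ± 5.56 CPM with sgPrrx1 CAFs. Ctsd, the lysosomal protease cathepsin D, fell by 0.47 with WT CAFs (adjusted p = 9.58e-09) and by 0.41 with sgPrrx1 CAFs (adjusted p = 5.08e-08). Pappa and Pappa2, the pappalysins, named after their values were seen, were called with at most 21 and 55 reads in a WT library and at most 0 and 2 in a library of cells alone.

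Signalling genes below the receptor were split. Among 39 adaptors and kinases tested in 168FARN, 21 rose and 7 fell with WT CAFs, beside the same 33.4% and 30.7% of all genes, and for Grb10 and Grb14, at 0 in cells alone, the rise was built in by the filter. Pik3r1, the regulatory subunit of phosphoinositide 3-kinase, fell by 1.01 (SE 0.0516, adjusted p = 3.17e-08), and Foxo3, a transcription factor held back by Akt, by 0.35 (adjusted p = 1.93e-06), while the catalytic subunit Pik3cb rose by 0.68 (adjusted p = 3.62e-07). Both falls were also called with sgPrrx1 CAFs, by 0.82 for Pik3r1 (adjusted p = 2.52e-07), and Foxo3 fell by 0.39 (adjusted p = 1.37e-06). The receptor substrates Irs1 and Irs2 were lower with sgPrrx1 than with WT CAFs, at log2 differences of -0.60 (adjusted p = 9.56e-05) and -0.45 (adjusted p = 1.76e-04). Of the pathway genes named by rule, the rises in that comparison were those of the GTPase gene Hras by 0.35 (adjusted p = 0.00150), of Hmga2, which codes for a chromatin protein, by 0.28 (adjusted p = 1.77e-05) and of Rheb, an activator of the mTOR kinase, by 0.19 (adjusted p = 0.00217). With sgPrrx1 CAFs against cells alone Hmga2 rose by 0.50 (adjusted p = 2.76e-07) and the kinase gene Map2k1 by 0.40 (adjusted p = 1.46e-06). Igf2bp1, an RNA-binding protein that holds Igf2 messenger RNA, rose with WT fibroblasts in both lines, by 0.75 in 168FARN (adjusted p = 3.70e-07) and 0.48 in LLC1 (adjusted p = 0.0342), and with sgPrrx1 fibroblasts by 0.45 (adjusted p = 4.73e-05) and 0.59 (adjusted p = 0.0289). The LLC1 call with WT fibroblasts was lost without alone replicate 1 or 2 or any WT replicate, when 0 pathway genes rose, and that with sgPrrx1 fibroblasts without any 1 library other than sgPrrx1 replicate 3. In LLC1, 3 of 51 pathway genes tested rose and 1 fell with WT fibroblasts, where 8.83% of all genes were called, and 9 rose and 13 fell without sgPrrx1 replicate 3, where 44.2% were called. Stc1 and Stc2, inhibitors of the Pappa proteases at 0.132 and 0 CPM in LLC1 cells alone, passed the filter through coculture, so their rises in both of these counts were built in. Without that library the insulin receptor gene Insr fell by 0.82 (adjusted p = 0.00121) and Irs2 by 0.81 (adjusted p = 0.00375). In the same fit Hras rose by 0.79 (adjusted p = 7.25e-04) and Grb14 by 0.35 (adjusted p = 7.45e-04). The fallen gene with all libraries was Foxo4, by 0.71 (adjusted p = 0.00398). With sgPrrx1 fibroblasts against cells alone Hras rose by 0.95 (adjusted p = 0.0424) and Foxo4 fell by 0.48 (adjusted p = 0.0254) with all libraries. Neither call was made without any 1 library of cells alone, WT replicate 1 or 2, or sgPrrx1 replicate 1 or 2, when 0 pathway genes were called. Without sgPrrx1 replicate 3 Hmga2 rose with sgPrrx1 fibroblasts by 0.50 against cells alone (adjusted p = 6.69e-04) and by 0.25 against WT coculture (adjusted p = 0.0423), Hras rose by 0.69 (adjusted p = 0.00418) and Foxo4 fell by 0.51 (adjusted p = 0.00148) against cells alone, and Irs2 and Insr fell by 0.57 (adjusted p = 0.0451) and 0.45 (adjusted p = 0.0474) against cells alone. The insulin gene Ins1, Igfbp1 and Igfbpl1 had 0 reads in both lines.

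The genes whose level was most like that of 2 members over the 9 libraries of a line, by Pearson's r of log2 CPM and among genes with a mean of at least 100 reads, are given as a description; the points share their groups and scaling. For Igfbp7 in 168FARN they included Xist (r = 0.998) and Rdh14 (0.998), and Xist, an RNA made from the inactive X chromosome of female cells, was at 0.488 ± 0.154 CPM alone, 22.8 ± 1.06 in WT and 3.19 ± 0.328 in sgPrrx1 coculture (SD, n = 3). For Igfbp7 in LLC1 they were Glipr2 (r = 0.986), Evi2a (0.978) and Gbp2 (0.977). For Igfbp4, the member with the highest mean CPM, they were Rgs16 (0.999), Synpo (0.998) and Cck (0.998) in 168FARN. In LLC1 they were Flot2 (0.997), Def6 (0.997) and Srm (0.997), and the part of the sgPrrx1 library numbered 3 in this likeness was not tested.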

How the data were processed

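Deposited were 2 tables of raw read counts per gene symbol, 1 for each line. Per the labels the authors trimmed reads with Trimmomatic, aligned them with STAR to mm10 and counted them with HTSeq, and the use of strand is not given in the sources used here. The study's methods name versions of these tools and a batch correction with ComBat-seq in a section on fibroblast libraries, and do not say whether these libraries were treated likewise. Libraries were 100 bases, paired, from total RNA. Totals were 48315037 to 68933002 reads in 168FARN (median 60065810) and 66129117 to 103997557 in LLC1 (median 78252697).

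The members, pathway list and marker lists (fibroblast, epithelial, lung and mammary epithelial, immune, endothelial) were chosen with earlier results of these data known. Genes were filtered by filterByExpr, scaled by TMM and tested with the quasi-likelihood test of edgeR 4.0.16 (R 4.3.3), on the 9 libraries of a line or, between lines, on all 18. p-values were two-sided and Benjamini-Hochberg adjusted over all genes tested (13540, 12873 and 14344), with a threshold of 0.05. SEs are on the log2 scale. In 168FARN 8 members and in LLC1 5 passed the filter. Counting floors (3 reads per library) and intervals cover counting error only.

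Alternatives were DESeq2 1.42.0, limma 3.58.1 voom with quality weights, other scalings, filters and dispersions, only the 2 groups compared, a replicate block and leaving out each library. The tests were run on simulated counts: 100% of 200 genes changed by 2 log2 units were recovered for 168FARN WT against alone among 13393 genes, and 9.50% of the edgeR calls there were false. For LLC1 100% were recovered too, with 6.10% of the edgeR and 12.3% of the DESeq2 calls false. All genes of a line had the same dispersion, only well-read genes were changed and no library stood apart. The simulation therefore gives no recovery for smaller changes or for the LLC1 libraries as they are. All members are named, and of the pathway list the called genes that rose most (3) and fell most (3) in each comparison, if their mean count was 100 or more and their groups did not overlap. One of the genes most like Igfbp7 is not reported here. Symbols turned into dates (27 per table) were left as they were. Exon lengths came from a GENCODE annotation of NCBIM37, promoters and positions from RefSeq GRCm38.p6.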

Additional observations from a re-analysis of the deposited data

Results flagged for a closer look

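The response of Igfbp6 to WT fibroblasts differed between the lines by 0.88 on the log2 scale (LLC1 minus 168FARN, adjusted p = 0.0182), by a test of the difference itself in the joint edgeR fit of all 18 libraries. In 168FARN each of the 3 WT libraries lay below each library of cells alone, and in LLC1 each of the 3 lay above. Of all genes tested, 68.3% did not overlap between WT and alone in 168FARN and 53.2% in LLC1. The estimate ranged from 0.83 to 1.00 when each library was left out in turn, and the adjusted p was over the threshold, at 0.0505, without LLC1 alone replicate 2. Igfbp6 is among the 25% of genes with the shortest exon length, and the median log2 difference between the 25% longest and the 25% shortest genes moved with this result: in 168FARN it was -0.061 to -0.042 alone and 0.15 to 0.19 in WT coculture, and in LLC1 it was 0.32, 0.38 and -0.0085 alone and -0.055, 0.11 and -0.15 in WT coculture. Its part in the difference was not tested.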

How the results depend on the processing

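Of the values of single members under the alternatives, 1150 kept their direction and side of the threshold, 62 passed it newly, 17 no longer passed it and 14 changed sign. Numbers of members called moved by over 1.5 times as follows, and the cause was not tested. With a minimum of 10 counts in every library, which tests fewer genes, 4 were called in 168FARN between sgPrrx1 and WT (64.0% of all genes), 0 in LLC1 for WT and for sgPrrx1 against alone (8.28% and 4.95%), and 2 for the difference between lines in the WT response (33.5%). With voom, 5, 5 and 4 were called in the LLC1 comparisons of WT with alone, sgPrrx1 with alone and sgPrrx1 with WT (58.6%, 48.0% and 36.4% of all genes), and 6 and 5 for the differences between lines in the WT response and in sgPrrx1 against WT (60.6% and 54.9%). With only the 2 groups compared, 4 and 0 were called for LLC1 WT and sgPrrx1 against alone (40.7% and 0.215% of all genes). DESeq2 called 1 in LLC1 between sgPrrx1 and WT (3.89% of all genes) and 2 for the difference between lines in the WT response (34.4%), as did RLE scaling for the latter (29.0%). The replicate block gave 2 for the WT response and 1 for sgPrrx1 against WT between lines (32.4% and 22.1% of all genes). Leaving out each library gave 7 to 9, 4 to 6 and 7 to 9 in 168FARN, 1 to 4, 0 to 2 and 0 to 2 in LLC1, 0 to 4, 0 to 0 and 0 to 3 between lines, and 5 to 6 in cells alone. The share of all genes called then ran from 59.1% to 62.7%, 43.0% to 50.9% and 54.4% to 59.0% in 168FARN, from 2.09% to 44.2%, 0.398% to 26.7% and 0.0229% to 5.69% in LLC1, from 24.3% to 52.5%, 8.79% to 28.0% and 14.9% to 44.6% between lines, and from 65.7% to 81.6% in cells alone. All the highest LLC1 shares were without sgPrrx1 replicate 3.

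Sign changes all involved LLC1. Between sgPrrx1 and WT, Igf1r ran from -0.063 to 0.42, with -0.03 and -0.063 without sgPrrx1 replicate 1 and 2, Igf2r from -0.10 to 0.48, with -0.08 and -0.10, and Igfbp6 from -0.25 to 0.33, at -0.25 with voom. Between lines, for sgPrrx1 against alone, Igf2r ran from -0.45 to 0.15 (voom 0.081), Igfbp4 from -0.12 to 0.27 (voom -0.092) and Igfbp7 was at -0.47 with voom. For sgPrrx1 against WT, Igfbp7 ran from -0.32 to 0.53 (voom -0.14), and for WT against alone it was at -0.32 with voom.

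By the labels replicate numbers tie no samples together. Deviations of same-numbered libraries correlated at -0.078 to 0.054 in 168FARN and -0.033 to 0.37 in LLC1, and 2 of 9 and 6 of 9 libraries correlated best with their own number. For LLC1 alone and sgPrrx1 all 3 same-numbered pairs correlated over 0.1, at 0.12, 0.21 and 0.37, and there the block changed no member's call. With the replicate block 7, 6 and 8 members were called in 168FARN (63.2%, 49.1% and 59.4% of all genes) and 1, 1 and 0 in LLC1 (7.99%, 2.96% and 0.0155%), and Igf2 in 168FARN was at -1.20 (adjusted p = 2.78e-07), -0.61 (2.93e-05) and 0.59 (2.50e-05). Igf1, Igfbp2, Igfbp3 and Igfbp5 lay within a few reads of the floor in most libraries, and the part of depth in this was not tested.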
